A study of Homo sapiens with 12 samples.

Results

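The genes described here are the well expressed members of the numbered ZNF family, in C4-2 cells treated with an androgen after nonspecific or paxillin siRNA. A gene was taken as a member when its symbol was ZNF followed by digits and at most 1 letter, and when its raw count averaged at least 400 over all 12 libraries. Of 56269 symbols in the count table, 557 had such a name and 160 of these reached the count. The members were thus selected on their mean raw count over all groups, a limit that favours long and highly expressed genes and is not independent of the groups. The mean count fell below 400 in 2 members over the 6 DHT libraries alone and in 8 over the 6 vehicle libraries alone, which averaged 27073156 and 23798220 counts in total. It fell below 400 in 0 members over the 6 paxillin siRNA libraries alone and in 16 over the 6 nonspecific siRNA libraries alone. These averaged 27645912 and 23225464 counts in total, so membership leaned on the deeper paxillin siRNA libraries. Just inside the limit lay ZNF239, ZNF440 and ZNF41, with mean counts of 402.167, 402.667 and 402.667, and just outside lay ZNF407, ZNF821 and ZNF614, with 393.333, 392.917 and 392.75. ZNF737 was singled out with earlier results of these data known, so its values and calls are a description and are not used as a test. It reached the limit only through the paxillin siRNA DHT libraries, with a mean raw count of 665 there and 340 over the other 9.

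C4-2 is a prostate cancer cell line that descends from LNCaP and grows without androgen. All cells received an siRNA, were kept in serum-free medium for 12 h and then received DHT (dihydrotestosterone, the androgen that activates the androgen receptor) or its ethanol vehicle for 24 h. The 4 groups, with 3 libraries each, were paxillin siRNA with 2.5 nM DHT, paxillin siRNA with vehicle, nonspecific siRNA with 2.5 nM DHT and nonspecific siRNA with vehicle. The siRNA was given 48 h before serum was withdrawn. Every comparison is within this single cell line, and the labels do not say whether replicates were separate cultures. The p-values therefore measure the spread between these libraries, which may be technical. In bulk RNA, fewer cells of a kind and less RNA per cell cannot be told apart.

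Paxillin (PXN), an adaptor protein of focal adhesions and the target of the knockdown, was measured at 14.2, 11.3 and 9.36 CPM (counts scaled to a common library total) with paxillin siRNA and DHT, against 136, 121 and 122 CPM with nonspecific siRNA and DHT. In vehicle PXN was at 16.7, 12.4 and 12.3 CPM with paxillin siRNA, against 149, 139 and 151 CPM with nonspecific siRNA. Library totals ran from 11944906 to 32040465 counts, so 1 count was worth 0.0312 to 0.0837 CPM. All 9 luminal prostate markers looked for passed the filter on low counts, with a summed level of 7417 to 18037 CPM. None of 3 basal and none of 3 immune markers passed it, while COL1A1 among fibroblast markers averaged 34.3 CPM and VWF among endothelial markers averaged 11.4 CPM.

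Numbered ZNF genes mostly encode C2H2 zinc finger proteins, in which tandem fingers held by a zinc ion each read a few bases of DNA. Many also carry a KRAB domain, which recruits the corepressor TRIM28 and with it the histone methyltransferase SETDB1, and a large share of these silence retroelements. The KRAB zinc finger genes arose by repeated local duplication and lie in clusters, most densely on chromosome 19.

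Promoters are shown for ZNF737, for the 2 other members that rose most with DHT and for the 1 that fell most with paxillin siRNA in DHT. Each runs from 250 bases before to 50 after the RefSeq start (GRCh38.p14), 5' to 3' on the strand of the gene, with every CG dinucleotide in capitals. The windows are chr19:20565732-20566031 on the minus strand for ZNF737, chr2:179861563-179861862 on the minus strand for ZNF385B, chr3:48240854-48241153 on the plus strand for ZNF589 and chr3:125374660-125374959 on the minus strand for ZNF148.
ZNF737: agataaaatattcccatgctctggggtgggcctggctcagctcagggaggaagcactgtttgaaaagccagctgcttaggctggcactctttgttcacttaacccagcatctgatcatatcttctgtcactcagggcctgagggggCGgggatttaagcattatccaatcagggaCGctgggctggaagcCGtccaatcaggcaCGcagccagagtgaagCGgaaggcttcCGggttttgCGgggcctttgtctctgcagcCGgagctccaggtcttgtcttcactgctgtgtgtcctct
ZNF385B: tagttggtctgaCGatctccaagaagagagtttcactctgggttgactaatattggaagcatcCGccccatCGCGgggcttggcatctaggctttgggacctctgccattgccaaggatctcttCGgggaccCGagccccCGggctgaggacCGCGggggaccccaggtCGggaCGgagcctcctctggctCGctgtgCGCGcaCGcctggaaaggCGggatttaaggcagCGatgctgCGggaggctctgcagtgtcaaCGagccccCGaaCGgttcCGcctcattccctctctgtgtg
ZNF589: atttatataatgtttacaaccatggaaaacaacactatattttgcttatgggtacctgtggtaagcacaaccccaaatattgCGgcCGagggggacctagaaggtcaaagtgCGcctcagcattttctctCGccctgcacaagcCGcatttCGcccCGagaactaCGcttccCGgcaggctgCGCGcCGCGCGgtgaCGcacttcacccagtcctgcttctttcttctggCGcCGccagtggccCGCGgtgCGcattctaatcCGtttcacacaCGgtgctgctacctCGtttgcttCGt
ZNF148: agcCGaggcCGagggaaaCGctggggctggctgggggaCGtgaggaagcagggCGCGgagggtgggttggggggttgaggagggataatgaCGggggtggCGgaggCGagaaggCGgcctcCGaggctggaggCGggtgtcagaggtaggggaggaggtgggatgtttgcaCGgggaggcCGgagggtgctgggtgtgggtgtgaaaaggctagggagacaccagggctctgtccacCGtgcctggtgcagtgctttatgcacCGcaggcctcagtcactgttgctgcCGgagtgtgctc

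The RefSeq table held a promoter for 135 of the 160 members. ZNF737 had 8 CG dinucleotides in its window and only 1 member had fewer, whereas ZNF385B had 22, ZNF589 had 24 and ZNF148 had 17. The members' windows held 3 to 55 CG dinucleotides with a median of 25, against a median of 14 over all 27305 promoters of the table. The hexamer AGAACA that the androgen receptor prefers, read on both strands, was in 8 of the 135 member windows (5.93%) and in 14.9% of all promoters. None of the 4 printed windows held this hexamer. Among the 23 matched members that rose with DHT under both siRNAs, ZNF770 was the 1 that held it. The full palindrome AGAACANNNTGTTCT, which contains the hexamer on each strand, was in 0 member windows and in 1 promoter of the table (0.004%). These counts describe letters in a short window and say nothing about binding of the receptor.

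The members differed widely in level and build. Per kilobase of the longest annotated transcript they ranged from 1.52 to 55.4 CPM over all libraries, with a median of 6.71 CPM per kilobase. The highest were ZNF217 at 55.4 CPM per kilobase, ZNF664 at 47.9, ZNF32 at 44.5, ZNF622 at 35.0 and ZNF146 at 31.4, and the lowest was the long transcript of ZNF445. Among the 157 members with a coding transcript, the C2H2 pattern matched 0 to 33 times with a median of 9, ZNF462 had the most fingers and 4 members had none by this pattern. A KRAB-A stretch was found in 74 members and not found in 83, and ZNF252P, ZNF271P and ZNF542P are annotated as pseudogenes. Of the members, 50 (31.2%) lay on chromosome 19, against 7.27% of the tested genes with an annotation. Together the members took 0.600 to 0.684% of the counts of a library. Their CPM summed to 6366 to 6594 with paxillin siRNA and DHT, 5906 to 6176 with paxillin siRNA and vehicle, 6362 to 6626 with nonspecific siRNA and DHT and 6371 to 6513 with nonspecific siRNA and vehicle. With the TMM scaling used for CPM, the sum was thus lowest in the 3 paxillin siRNA vehicle libraries, which did not overlap any other group. As a raw share of counts the order differed. The share was 0.619 to 0.628% with paxillin siRNA and DHT and 0.619 to 0.647% with paxillin siRNA and vehicle, which overlapped. It was lowest, at 0.600 to 0.615%, with nonspecific siRNA and DHT, and 0.669 to 0.684% with nonspecific siRNA and vehicle.

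By the usual scaling, DHT raised and lowered members in similar numbers under nonspecific siRNA and raised more than it lowered under paxillin siRNA. With paxillin siRNA, 39 of 160 members (24.4%) were higher and 15 (9.38%) lower with DHT than with vehicle at an adjusted p under 0.05, where 20.1% and 17.9% of all 16115 genes tested were called higher and lower. The members' median log2 fold change was 0.06, against -0.01 over all genes. With nonspecific siRNA, 33 members (20.6%) were higher and 28 (17.5%) lower, beside 21.6% and 18.9% of all genes, and the median was -0.00 against -0.01. The split depended on scaling: by upper quartiles, 25 members (15.6%) were higher and 20 (12.5%) lower with paxillin siRNA, and 18 (11.2%) were higher and 42 (26.2%) lower with nonspecific siRNA. The members' medians were then -0.03 and -0.08, against -0.09 and -0.08 over all genes. By upper quartiles the calls over all genes also moved, to 2262 higher and 3935 lower with paxillin siRNA and to 2707 higher and 3896 lower with nonspecific siRNA. The DHT comparisons under the 2 siRNAs share no library, and 25 members were called higher in both, 64.1% of those with paxillin siRNA and 75.8% of those with nonspecific siRNA, beside 79.7% and 74% over all genes. Another 12 were lower in both, 80% and 42.9% of the lists, beside 72.4% and 68.5% over all genes, and 0 were called in opposite directions.

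**Figure D1:**
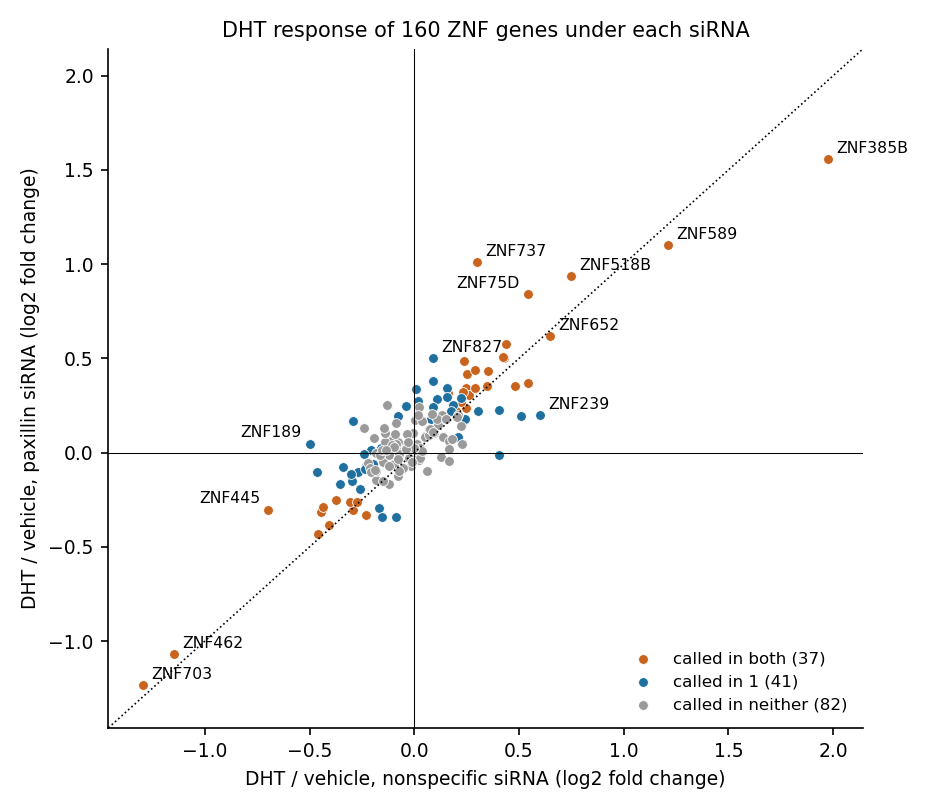
DHT over vehicle (log2 fold change) of each of the 160 members, with nonspecific siRNA on the x axis and paxillin siRNA on the y axis; the dotted line marks equal responses and colour shows in how many of the comparisons a member was called. ZNF385B at 1.98 and 1.56 and ZNF703 at -1.30 and -1.23 lie at the ends of the diagonal, and ZNF737 at 0.30 and 1.01 lies well above it.

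ZNF385B, a zinc finger protein linked to p53-dependent apoptosis (chr2:179441982-179861505, ENSG00000144331.19), rose most. It was at 31.1, 26.2 and 27.3 CPM with DHT, against 8.549, 8.79 and 11.45 CPM with vehicle, in paxillin siRNA libraries. With nonspecific siRNA it was at 36.0, 29.4 and 30.6 CPM with DHT, against 7.58, 7.71 and 8.87 CPM with vehicle. Every DHT library lay above every vehicle library, and the log2 fold changes were 1.56 ± 0.12 with paxillin siRNA and 1.98 ± 0.12 with nonspecific siRNA (SE, n = 3 each). Its mean raw count was 774 over the DHT libraries and 224 over the vehicle libraries, so it reached the limit of 400 only through the group where it was high, and these values are a description.

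ZNF589, a KRAB protein also known as the stem cell zinc finger (chr3:48241100-48299253, ENSG00000164048.13), had 42.9, 35.5 and 28.4 CPM with DHT, against 19.04, 15.83 and 14.96 CPM with vehicle, under paxillin siRNA. Under nonspecific siRNA it had 44.4, 41.1 and 38.4 CPM with DHT, against 21.4, 17.4 and 15.6 CPM with vehicle. The groups did not overlap, and the log2 fold changes were 1.10 ± 0.13 (SE, n = 3 each, edgeR adjusted p = 3.27e-06) with paxillin siRNA and 1.21 ± 0.14 (edgeR adjusted p = 1.35e-06) with nonspecific siRNA. ZNF518B, which binds the methyltransferase EHMT2, rose by 0.94 with paxillin siRNA and 0.75 with nonspecific siRNA on the log2 scale. ZNF75D, a KRAB and SCAN protein gene on the X chromosome, rose by 0.84 and 0.54 in the same comparisons. ZNF652, a repressor that works with CBFA2T3, rose by 0.62 and 0.65. ZNF239, which binds RNA as well as DNA, rose by 0.60 with nonspecific siRNA, and had a log2 fold change of 0.20 with paxillin siRNA that did not pass (edgeR adjusted p = 0.12). It lay just inside the count limit and was lowest with nonspecific siRNA and vehicle, so its rise of 0.60 is a description.

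ZNF703, a corepressor-associated protein amplified in luminal breast cancer, fell most. It was at 28.1, 26.3 and 29.4 CPM with DHT, against 72.2, 64.7 and 60.0 CPM with vehicle, under paxillin siRNA. Under nonspecific siRNA it was at 33.1, 34.3 and 34.8 CPM with DHT, against 92.4, 73.9 and 85.7 CPM with vehicle. No DHT library reached any vehicle library, and the log2 fold changes were -1.23 ± 0.08 (SE, n = 3 each, edgeR adjusted p = 1.95e-09) with paxillin siRNA and -1.30 ± 0.08 (edgeR adjusted p = 1.06e-09) with nonspecific siRNA.

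ZNF462, a large multi-finger protein needed in neural development, had 39.39, 38.37 and 32.04 CPM with DHT, against 87.9, 74.4 and 68.2 CPM with vehicle, under paxillin siRNA. Under nonspecific siRNA it had 51.8, 47.2 and 45.3 CPM with DHT, against 113, 111 and 96.6 CPM with vehicle. The log2 fold changes were -1.07 ± 0.10 with paxillin siRNA and -1.15 ± 0.10 with nonspecific siRNA (SE, n = 3 each, edgeR adjusted p = 8.21e-08 and 3.08e-08). ZNF445, a KRAB protein that maintains imprinted methylation, fell by 0.30 with paxillin siRNA and by 0.70 with nonspecific siRNA on the log2 scale. ZNF467 fell by 0.43 and 0.46 in these comparisons. ZNF862 and ZNF580 completed the 5 largest falls with paxillin siRNA, by 0.38 and 0.34, and ZNF189 and ZNF252P those with nonspecific siRNA, by 0.50 and 0.47. ZNF252P is a pseudogene, and 0.949% of the 50-base words of its transcript were found in other genes. Apart from the falls of ZNF703 and ZNF462 and the rises of ZNF385B, ZNF589 and ZNF737, no called DHT change of a member reached 2-fold.

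**Figure D2:**
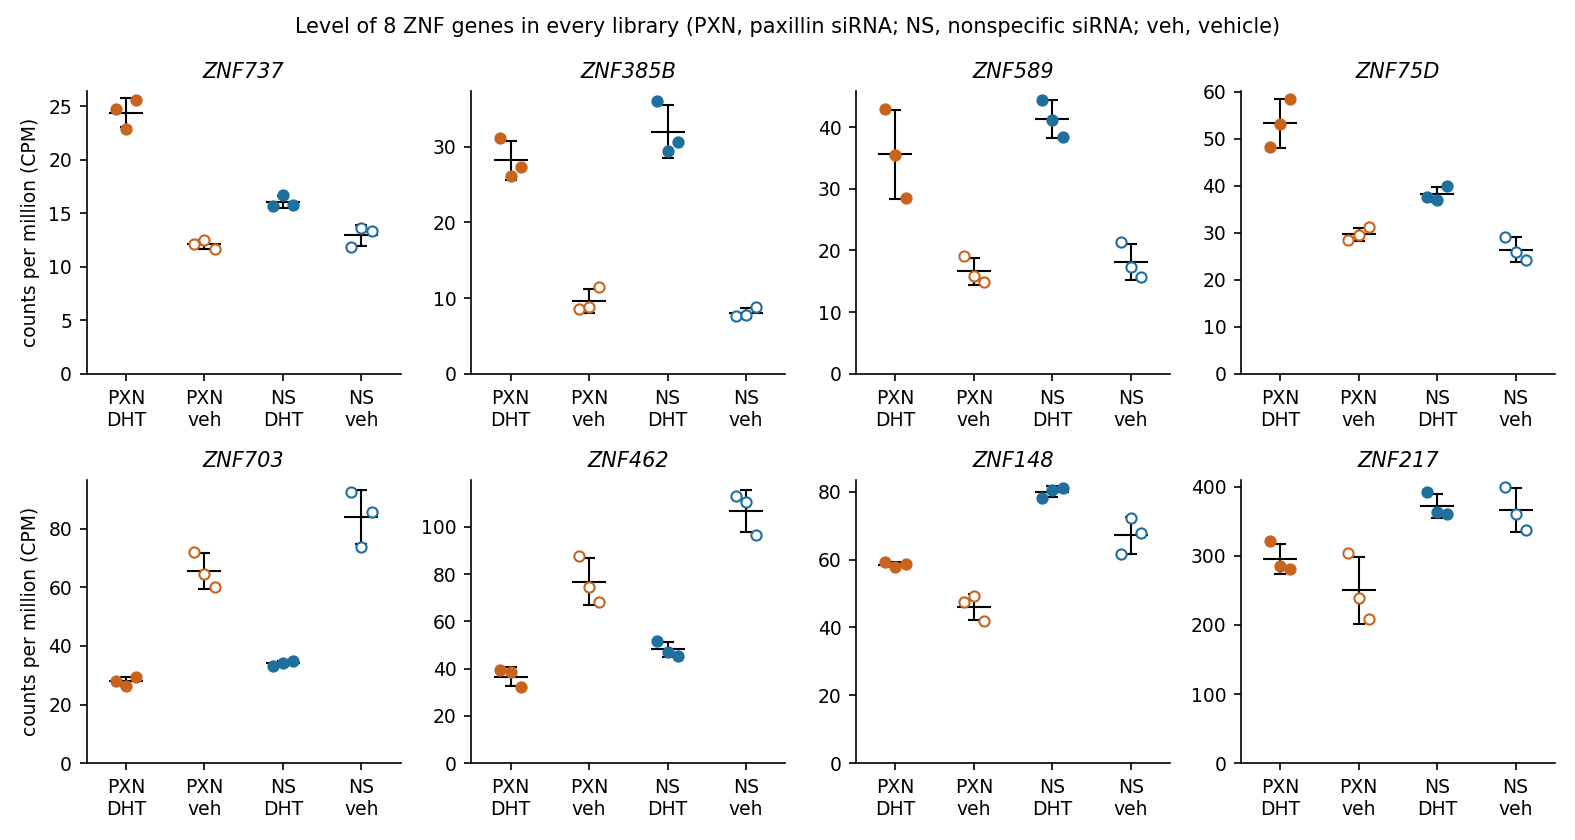
Level in CPM of 8 members in each of the 12 libraries; points are libraries, bars the group mean and SD (n = 3), orange paxillin siRNA (PXN), blue nonspecific siRNA (NS), filled DHT and open vehicle. ZNF737 reaches 22.9 to 25.6 CPM with paxillin siRNA and DHT and no more than 16.7 CPM in any other group, whereas ZNF385B and ZNF589 are high in both DHT groups and ZNF148 is lower with paxillin siRNA in each treatment.

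Paxillin siRNA changed fewer members than DHT did, and by smaller amounts. In DHT, 11 members (6.88%) were higher and 5 (3.12%) lower with paxillin than with nonspecific siRNA, where 6.34% and 7% of all genes were called. In vehicle, 7 members (4.38%) were higher and 19 (11.9%) lower, where 10.7% and 9.78% of all genes were called. The medians were 0.02 in DHT and -0.05 in vehicle on the log2 scale, against 0.00 and -0.01 over all genes, and 0 called changes reached 2-fold. Libraries with the same number deviated together. The main fit did not use this pairing. Blocking on that number gave 27 called members in DHT and 42 in vehicle, against 16 and 26 without the block, and kept all 16 and all 26. Calls over all genes rose too, from 1021 higher and 1128 lower to 1681 and 1805 in DHT. In vehicle they rose from 1727 higher and 1576 lower to 2384 and 2173. The counts also moved when 1 library was left out. In DHT the higher calls became 4 without paxillin DHT library 2 or 3, 5 without nonspecific DHT library 2 and 7 without nonspecific DHT library 3. Over all genes these higher calls fell from 1021 to 626, 484, 546 and 694 in the same order. The lower calls in DHT became 2 without nonspecific DHT library 1 and 3 without nonspecific DHT library 2 or 3 or paxillin DHT library 2 or 3. Over all genes these lower calls fell from 1128 to 860, 723, 863, 760 and 694 in the same order. In vehicle the higher calls became 2 and the lower calls 11 without nonspecific vehicle library 2 or paxillin vehicle library 3, and the higher calls became 4 without paxillin vehicle library 2. Over all genes the higher calls in vehicle fell from 1727 to 1025, 987 and 1268 in the same order. The lower calls fell from 1576 to 941 without nonspecific vehicle library 2 and to 861 without paxillin vehicle library 3.

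The siRNA comparisons in DHT and in vehicle share no library either. All 5 members lower in DHT were also lower in vehicle, 26.3% of the 19, namely ZNF148, ZNF217, ZNF462, ZNF703 and ZNF778. Over all genes the shares lower in both were 62.1% and 44.4%. ZNF148 (ZBP-89), which binds GC-rich promoter elements (chr3:125225561-125375354, ENSG00000163848.19), was at 59.2, 57.7 and 58.7 CPM with paxillin siRNA, against 78.1, 80.7 and 81.1 CPM with nonspecific siRNA, in DHT. In vehicle it was at 47.4, 49.2 and 41.8 CPM with paxillin siRNA, against 61.55, 72.36 and 67.71 CPM with nonspecific siRNA. The groups did not overlap, and the log2 fold changes were -0.45 ± 0.07 (SE, n = 3 each, edgeR adjusted p = 0.000395) in DHT and -0.55 ± 0.07 (edgeR adjusted p = 5.55e-05) in vehicle.

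ZNF217, a breast cancer oncogene product that binds CoREST and CtBP corepressors, was the member with the most counts. It had 321.1, 285.5 and 281.7 CPM with paxillin siRNA, against 392, 363 and 361 CPM with nonspecific siRNA, in DHT. In vehicle it had 303.9, 238.5 and 209.3 CPM with paxillin siRNA, against 400.3, 361 and 338 CPM with nonspecific siRNA. Its log2 fold change was -0.55 ± 0.10 in vehicle (SE, n = 3 each, edgeR adjusted p = 0.00134). In DHT it was -0.33 ± 0.10 (edgeR adjusted p = 0.0432), and there the call was lost without nonspecific vehicle library 2, paxillin vehicle library 2, any of the 3 nonspecific DHT libraries or paxillin DHT library 2 or 3 (edgeR adjusted p 0.0511 to 0.139).

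ZNF778 fell by 0.40 in DHT and 0.44 in vehicle, and ZNF462 by 0.39 and 0.47. ZNF703 fell by 0.29 in DHT and 0.35 in vehicle. In DHT the ZNF462 call was lost without nonspecific DHT library 1 or paxillin DHT library 3 (edgeR adjusted p 0.0599 and 0.0728), and the ZNF703 call without any of the 3 nonspecific DHT libraries or paxillin DHT library 1 or 2 (0.0593 to 0.139). ZNF426, a KRAB repressor, had the largest fall in vehicle, to 17.85, 15.98 and 14.78 CPM with paxillin siRNA, against 25.7, 26.9 and 26.9 CPM with nonspecific siRNA. Its log2 fold change was -0.71 ± 0.08 in vehicle (SE, n = 3 each, edgeR adjusted p = 3.19e-05) and -0.25 in DHT, which did not pass (edgeR adjusted p = 0.0571). ZNF268, another KRAB gene, fell by 0.49 in vehicle.

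ZNF768 was the 1 member higher in both, 9.09% of those in DHT and 14.3% of those in vehicle, beside 62.4% and 36.9% over all genes. ZNF239 rose most in vehicle, to 15.8, 15.7 and 17.4 CPM with paxillin siRNA, against 11.7, 10.1 and 11.1 CPM with nonspecific siRNA. Its log2 fold change was 0.58 ± 0.10 (SE, n = 3 each). It lay just inside the count limit and was lowest with nonspecific siRNA and vehicle, so this rise is a description as well. The other largest rises in vehicle were small, 0.32 for ZNF205, 0.27 for ZNF74, 0.25 for ZNF622 and 0.24 for ZNF598. The mean raw count of ZNF205 fell below 400 over the nonspecific siRNA libraries alone, so its rise is a description. ZNF205, ZNF74, ZNF622 and ZNF598 each lost the call without nonspecific vehicle library 2 or paxillin vehicle library 3. The ZNF205 call was also lost without nonspecific vehicle library 3, nonspecific DHT library 2 or paxillin vehicle library 1 or 2 (edgeR adjusted p 0.0507 to 0.223 in all 6 cases). The ZNF74 call was also lost without nonspecific vehicle library 3 or paxillin vehicle library 1 (0.0602 to 0.16), and that of ZNF622 without nonspecific vehicle library 3 (0.0503 to 0.0646). The ZNF598 call was also lost without nonspecific DHT library 2 or 3, paxillin vehicle library 1 or 2 or paxillin DHT library 2 (0.051 to 0.22). ZNF205, ZNF74 and ZNF598 also missed the threshold once GC content and length were fitted (edgeR adjusted p 0.345, 0.0562 and 0.377). The ZNF768 call in vehicle was lost with that fit too, with or without the replicate block, and its call in DHT was kept.

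In DHT the rises after paxillin siRNA were led by ZNF737 with 0.60, ZNF75D with 0.48 and ZNF445 with 0.45. ZNF75D was at 48.1, 53.2 and 58.5 CPM with paxillin siRNA, against 37.7, 36.9 and 39.9 CPM with nonspecific siRNA, in DHT (log2 fold change 0.48 ± 0.08, SE, n = 3 each, edgeR adjusted p = 0.000869). In vehicle it was at 28.4, 29.5 and 31.1 CPM with paxillin siRNA, against 29.2, 26.0 and 24.1 CPM with nonspecific siRNA, and these groups overlapped. ZNF445, ZNF720 (0.35) and ZNF326 (0.33) completed the 5 largest. The mean raw count of ZNF326 fell below 400 over the nonspecific siRNA libraries alone. Its membership thus leaned on the paxillin siRNA libraries, and its rise is a description. The ZNF445 call was lost without nonspecific DHT library 2 or 3 or paxillin DHT library 3 (edgeR adjusted p 0.0573 to 0.08). The ZNF720 call was lost without nonspecific DHT library 2 or paxillin DHT library 3 (0.057 and 0.0715), and the ZNF326 call without nonspecific DHT library 1 or paxillin DHT library 2 (0.0763 and 0.0557).

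**Figure D3:**
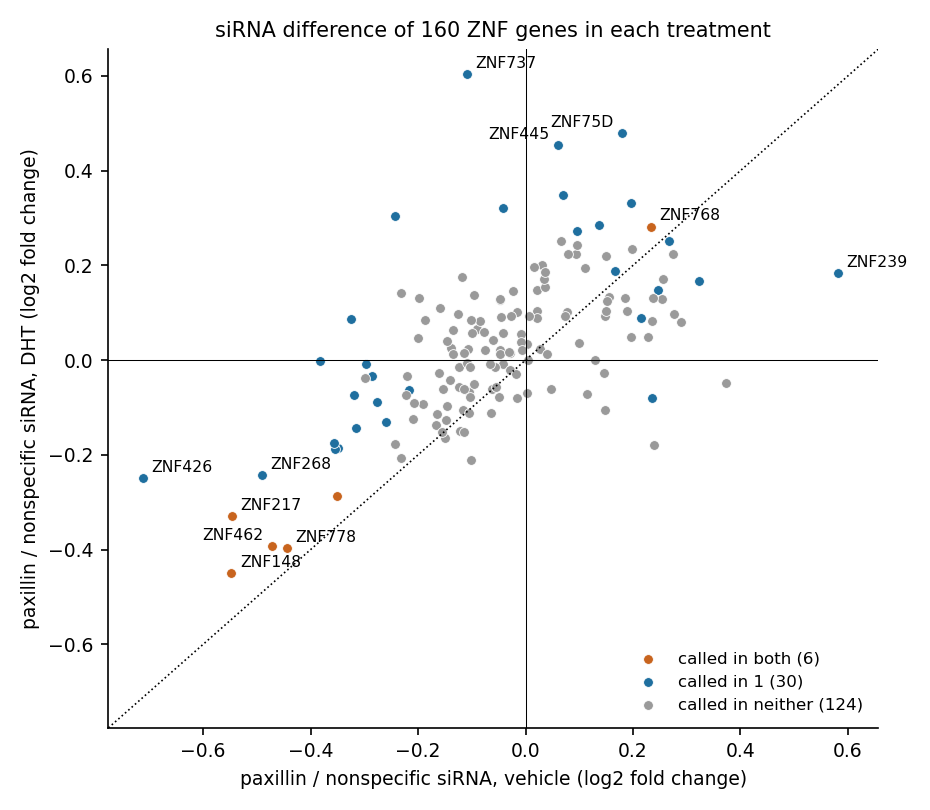
Paxillin over nonspecific siRNA (log2 fold change) of each of the 160 members, in vehicle on the x axis and in DHT on the y axis; the dotted line marks equal differences and colour shows in how many of the comparisons a member was called. ZNF148 and ZNF217 lie in the lower left at -0.55 in vehicle, and ZNF737 at -0.11 in vehicle and 0.60 in DHT lies at the top.

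ZNF737 encodes a KRAB protein whose 536 residues held 13 C2H2 fingers, and it lies at chr19:20535825-20565809 on the minus strand (GRCh38, ENSG00000237440.8). It was at 24.7, 22.9 and 25.6 CPM with paxillin siRNA and DHT, against 12.2, 12.5 and 11.7 CPM with paxillin siRNA and vehicle. With nonspecific siRNA it was at 15.7, 16.7 and 15.8 CPM with DHT, against 11.82, 13.68 and 13.35 CPM with vehicle. The paxillin siRNA DHT libraries were thus high and separate from all others, and the vehicle groups overlapped. DHT went with a 2.02-fold level with paxillin siRNA (log2 1.01 ± 0.08, SE, n = 3 each) and a 1.23-fold level with nonspecific siRNA (log2 0.30 ± 0.09). Paxillin against nonspecific siRNA gave 0.60 ± 0.08 in DHT and -0.11 ± 0.09 in vehicle on the log2 scale.

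Between the DHT responses under paxillin and nonspecific siRNA, ZNF737 differed by 0.71 ± 0.12 on the log2 scale, the largest positive difference of the 160. Across all genes 0.0372% were called for a larger and 0.0124% for a smaller response with paxillin siRNA, which is 6 and 2 genes, and ZNF737 was the 1 member among them. At an unadjusted p under 0.05 there were 25 members and 1435 of all genes, and DESeq2 also called 1 member. The replicate block called 3, adding ZNF827 and ZNF189, and the fit with GC content and length called 0. With the block added to that fit, 1 member was called, ZNF737. Over all genes DESeq2 called 27 higher and 27 lower, the block 42 and 55, the GC and length fit 4 and 0, and both together 38 and 53. Leaving out a single library gave a call for ZNF737 only without nonspecific vehicle library 1 or paxillin vehicle library 1, and none without each of the other 10. As ZNF737 was chosen with this pattern known, its calls and rank restate that choice and are not support. Without library 2 or 3 of any group, 0 of all genes were called in either direction. The next differences were 0.55 ± 0.14 for ZNF189, 0.46 ± 0.12 for ZNF426, 0.41 ± 0.11 for ZNF827 and 0.39 ± 0.16 for ZNF445 (SE, n = 3 each). At the other end stood ZNF581 at -0.42 ± 0.21, ZNF385B at -0.42 ± 0.17 and ZNF239 at -0.40 ± 0.14, none of which passed (edgeR adjusted p 0.589, 0.479 and 0.439).

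The neighbours of ZNF737 had DHT responses on both sides of 0. Within 2 Mb on either side, 20 other numbered ZNF genes were tested, of which 1, ZNF714, was a member. Their DHT log2 fold changes with paxillin siRNA ran from -0.51 to 1.24 with a median of 0.05, and 1 was called higher and 1 lower. The one called higher, the pseudogene ZNF826P, had a mean raw count of only 8.33. With paxillin siRNA in DHT, where ZNF737 had the largest rise among members, 3 of the 20 were called higher (ZNF826P by 2.45, ZNF93 by 0.69 and ZNF431 by 0.32) and 0 lower. Their differences of DHT responses had a median of 0.24 and were positive in 14 of 20. Of the 50-base words of the ZNF737 transcript, 9.67% occurred in transcripts of other genes, most often ZNF66 (4.06%), whose mean raw count was 15.8 against 421 for ZNF737.

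The difference of DHT responses leaned positive over the members as a group. It was above 0 in 117 of 160 members, against 8029 of 16115 genes, with medians of 0.07 and -0.00. The lean was not particular to the members. The difference was above 0 in 190 of 299 tested ZNF genes below the count limit, 19 of 22 ZSCAN and ZKSCAN genes and 26 of 36 ZBTB genes. Their medians were 0.08, 0.17 and 0.06. Among ZFP genes it was above 0 in 9 of 14, and among KLF and SP genes in 13 of 21. Across genes, the difference also followed base composition, in which the members differed from all genes tested. The median GC content of the members' longest transcripts was 44.9%, against 49.1% over all genes tested, and their median length was 4690.5 nt against 3253 nt. The tested ZNF genes below the count limit had medians of 42.8% and 3449 nt, so a low GC content was shared with them. Across members, Spearman's rho of the difference was -0.49 with GC content and 0.32 with length, and across 13947 annotated genes it was -0.25 and 0.19. These are descriptions across genes that share the same 12 libraries, and genes are not independent replicates.

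In the lowest GC quintile of all genes the median difference was 0.13 for 42 members, against 0.07 for all genes. In the second quintile it was 0.14 for 45 members, against 0.04 for all genes, and in the highest it was -0.05 for 29 members, against -0.08 for all. Once a smooth trend with GC content and length was fitted in every library, the difference was above 0 in 110 members and its median was 0.06, against 0.00 over all genes, with rho at -0.04 for GC content. ZNF737, with a GC content of 40.0% and a length of 2867 nt, then differed by 0.66 ± 0.11. The siRNA difference in vehicle also followed GC content, with rho 0.30 over members and 0.25 over all genes. With the trend fitted, 28 members were called in vehicle, 17 of the 26 called without it, and 23 in DHT, with all 16 among them.

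**Figure D4:**
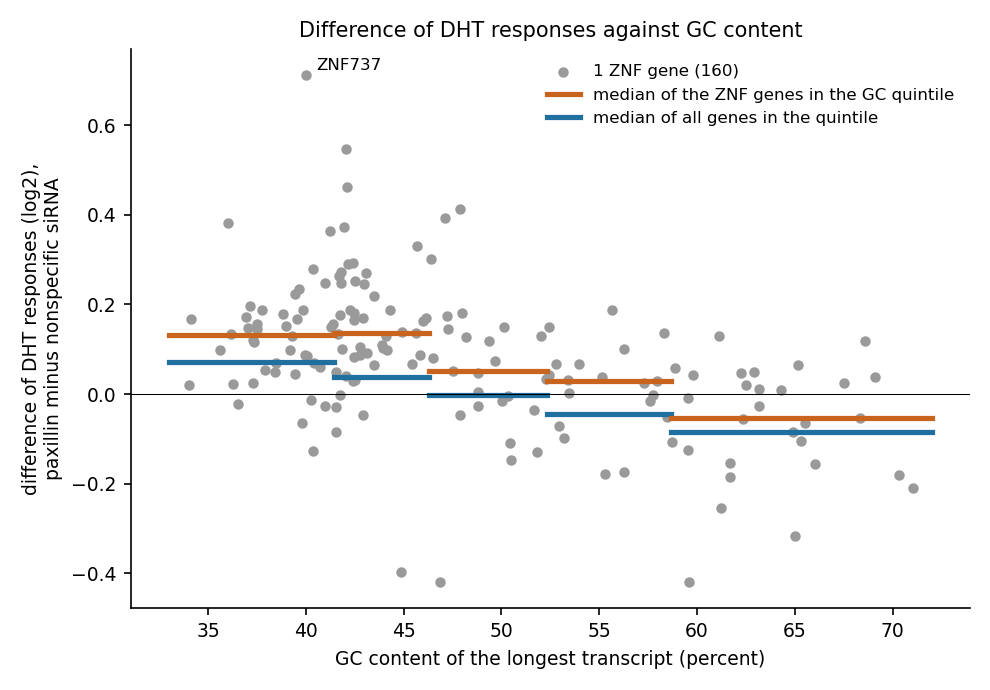
DHT response with paxillin siRNA minus that with nonspecific siRNA (log2) against the GC content in percent of the longest transcript; grey points are the 160 members, orange lines their medians within GC quintiles of all genes and blue lines the medians of all genes there. Orange lines lie at 0.13 and 0.14 in the lowest quintiles and -0.05 in the highest, above the blue line in each, and ZNF737 lies above all other points.

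The members were also split by KRAB match and by chromosome. With paxillin siRNA, DHT raised 19 and lowered 4 of 74 KRAB members, and raised 19 and lowered 11 of 83 members without a KRAB match, where 20.1% and 17.9% of all genes were called. With nonspecific siRNA the counts were 12 and 13 among KRAB members and 21 and 14 among the others, where 21.6% and 18.9% of all genes were called. On chromosome 19, DHT with paxillin siRNA raised 17 and lowered 1 of 50 members, and elsewhere it raised 22 and lowered 14 of 110. With nonspecific siRNA, DHT raised 9 (18%) and lowered 4 (8%) of the 50, and raised 24 and lowered 24 of the 110. With paxillin siRNA, the 35 KRAB members on chromosome 19 had 13 higher and 0 lower, where the 39 on other chromosomes had 6 and 4. With nonspecific siRNA the counts were 7 and 3 of the 35, and 5 and 10 of the 39. These splits were not tested. The median difference of DHT responses was 0.14 for KRAB members on chromosome 19 and 0.07 for those elsewhere. The chromosome 19 members had a median GC content of 42.4% and the rest 47.2%. With GC content and length fitted, the median difference of the chromosome 19 KRAB members was 0.08, and 12 were higher and 0 lower with DHT under paxillin siRNA.

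**Figure D5:**
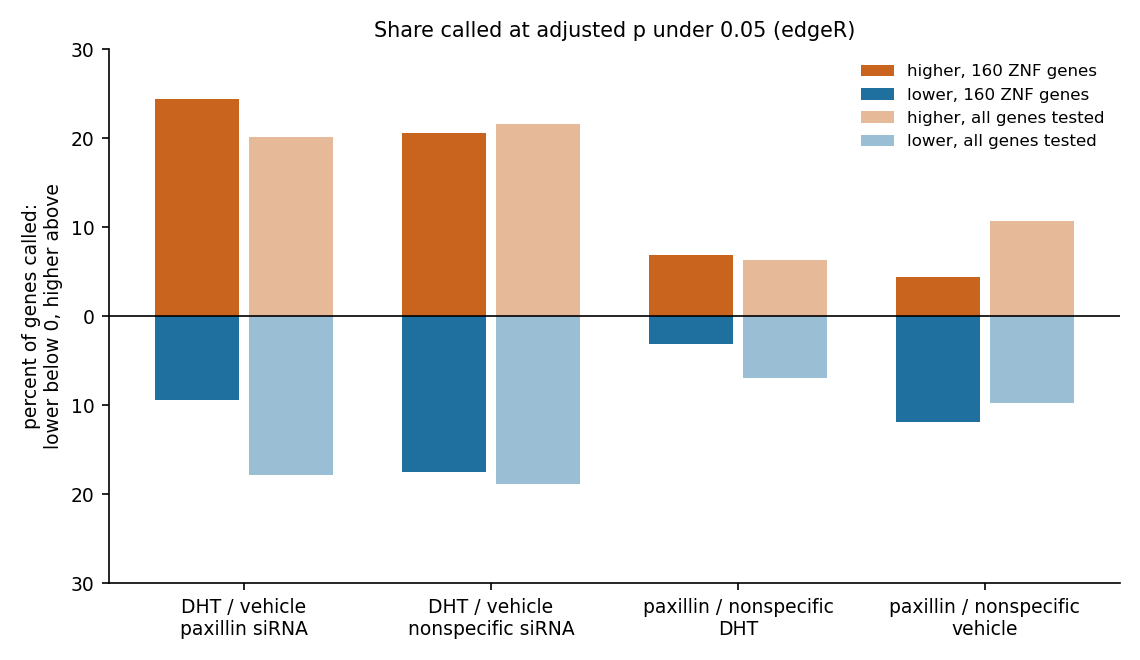
Percent of genes called higher (orange, above 0) and lower (blue, below 0) at an adjusted p under 0.05 in each comparison, with dark bars for the 160 members and pale bars for all 16115 genes tested. Members called lower were 9.38% against 17.9% of all genes for DHT with paxillin siRNA, and members called higher were 4.38% against 10.7% for paxillin siRNA in vehicle.

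The members of 4 role lists were read from the same fit, and with lists this short their counts are to be set beside the shares of all genes called. For DHT these were 20.1% higher and 17.9% lower with paxillin siRNA, and 21.6% and 18.9% with nonspecific siRNA. Of 7 members that act on RNA or ribosomes, DHT raised 0 and lowered 2 with paxillin siRNA (28.6% lower) and raised 2 (28.6%) and lowered 3 (42.9%) with nonspecific siRNA. ZNF598, the ubiquitin ligase of collided ribosomes, rose with DHT by 0.51 with nonspecific siRNA (edgeR adjusted p = 6.38e-05) and had 0.19 with paxillin siRNA (edgeR adjusted p = 0.064). ZNF622, a maturation factor of the large ribosomal subunit, fell with DHT by 0.33 with paxillin siRNA and by 0.23 with nonspecific siRNA, and rose with paxillin siRNA in vehicle by 0.25. ZNF346, which binds double-stranded RNA, fell by 0.26 and 0.31 with DHT. ZNF330 rose by 0.31 and ZNF638, which silences unintegrated retroviral DNA, fell by 0.21 with nonspecific siRNA. ZNF106 passed in no comparison. The ZNF346 fall was lost with nonspecific siRNA without nonspecific DHT library 1 (edgeR adjusted p = 0.0576), and with paxillin siRNA without paxillin vehicle library 2 or paxillin DHT library 3 (0.0524 and 0.0726). The ZNF622 fall with nonspecific siRNA was lost without nonspecific DHT library 1 (0.0517), and the ZNF330 rise without nonspecific vehicle library 2 or 3 (0.082 and 0.0502). Without the filter on low counts ZNF638 had an edgeR adjusted p of 0.0523.

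Of 9 members of chromatin complexes, DHT raised 3 (33.3%) and lowered 1 (11.1%) with paxillin siRNA and raised 3 (33.3%) and lowered 2 (22.2%) with nonspecific siRNA. ZNF532, a partner of ZMYND8, rose by 0.57 with paxillin siRNA and 0.44 with nonspecific siRNA, while its complex mates ZNF592 and ZNF687 had 0.21 and -0.20 with nonspecific siRNA, both called there. ZNF318, a co-regulator of the androgen receptor in mouse, fell by 0.32 and 0.44. ZNF827, which recruits NuRD to telomeres, rose with DHT by 0.50 with paxillin siRNA (edgeR adjusted p = 4.15e-05), and had 0.09 with nonspecific siRNA (edgeR adjusted p = 0.379). It fell after paxillin siRNA in vehicle by 0.33, as ZNF451, a SUMO ligase, did by 0.28 and ZNF217 by 0.55. ZNF644, which works with EHMT2, passed in none. The ZNF687 call was lost without nonspecific vehicle library 1 or 3 or nonspecific DHT library 1 or 3 (edgeR adjusted p 0.0572 to 0.122), and the ZNF592 call with upper-quartile scaling (0.0604). The ZNF451 call was lost without nonspecific vehicle library 2 or paxillin vehicle library 3 (0.0752 and 0.0583) and with GC content and length fitted (0.0704).

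Of 4 KRAB members known for retroelements or heterochromatin, 1 (25%) was raised by DHT, ZNF274, which brings SETDB1 to zinc finger gene exons, by 0.44 with paxillin siRNA and 0.29 with nonspecific siRNA. ZNF91, a repressor of SVA and L1 elements, rose with paxillin siRNA in DHT by 0.29 (edgeR adjusted p = 0.0221), a call lost without nonspecific DHT library 2 or 3 or paxillin DHT library 2 or 3 (0.0735 to 0.0961). ZNF33A and ZNF33B passed in none. Of 8 promoter-binding and other regulators, ZNF143, which anchors chromatin loops at promoters, and ZNF148 (25% of the list) rose with DHT, by 0.42 and 0.34 with paxillin siRNA and by 0.25 each with nonspecific siRNA. Both fell after paxillin siRNA in vehicle, by 0.35 and 0.55, as did ZNF207, a spindle assembly factor, by 0.32. ZNF76, ZNF281, ZNF384, ZNF24 and ZNF292 passed in none. Leaving out 1 library ended the ZNF143 call for DHT with nonspecific siRNA in 6 cases (edgeR adjusted p 0.0523 to 0.132), namely any nonspecific vehicle library, nonspecific DHT library 1 or 2 or paxillin vehicle library 2. With upper-quartile scaling the DHT rises with nonspecific siRNA did not pass for ZNF143 and ZNF148 (0.146 and 0.0615). The ZNF143 fall in vehicle was lost without nonspecific vehicle library 2 or 3 or paxillin vehicle library 2 or 3 (0.0617 to 0.0897).

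The corepressors that KRAB proteins use were measured beside them. Of 26 partner genes tested, DHT raised 9 and lowered 9 with paxillin siRNA, 34.6% each where 20.1% and 17.9% of all genes were called. With nonspecific siRNA it raised 6 (23.1%) and lowered 5 (19.2%), close to the 21.6% and 18.9% of all genes. TRIM28 itself averaged 406 CPM with DHT and 449 CPM with vehicle under paxillin siRNA, and 405 and 443 CPM under nonspecific siRNA, and did not pass in either (edgeR adjusted p 0.0997 and 0.14). SETDB1 had log2 fold changes of -0.13 and -0.10, which did not pass. CBX5, a heterochromatin protein, fell by 0.22 with paxillin siRNA and by 0.31 with nonspecific siRNA, and ATF7IP, the SETDB1 cofactor, by 0.28 and 0.51. CBX3 and WIZ rose, by 0.28 and 0.30 with paxillin siRNA and by 0.24 and 0.39 with nonspecific siRNA. Also lower with paxillin siRNA were HELLS (-0.58), CHAF1B (-0.55), UHRF1 (-0.48), CHAF1A (-0.38), CHD4 (-0.28), EHMT2 (-0.26) and DNMT1 (-0.23). Also higher there were TRIM24 (0.42), TRIM33 (0.28), HDAC2 (0.28), SMARCAD1 (0.26), CHD3 (0.23), EHMT1 (0.20) and MORC2 (0.19). With nonspecific siRNA the others called were CHAF1B (-0.35), CHD4 (-0.26), CBX1 (-0.19), TRIM33 (0.20), PPHLN1 (0.19), HDAC2 (0.18) and MORC2 (0.18). After paxillin siRNA, CBX3 fell by 0.32 in DHT and by 0.37 in vehicle, and ATF7IP and TRIM24 rose in DHT by 0.36 and 0.23. In vehicle the other called partners were DNMT1 (0.25) and CHAF1A (0.26), which rose, and SMARCAD1, which fell by 0.27.

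Other zinc finger genes are set beside the members with no test. Of 299 tested ZNF genes below the count of 400, DHT raised 23 and lowered 30 with paxillin siRNA and raised 21 and lowered 54 with nonspecific siRNA, and their median difference of DHT responses was 0.08. Of 36 ZBTB genes, DHT raised 9 and lowered 4 with paxillin siRNA and raised 8 and lowered 5 with nonspecific siRNA. Of 22 ZSCAN and ZKSCAN genes it raised 2 and lowered 5 with paxillin siRNA, and raised 1 and lowered 11 with nonspecific siRNA. Over all genes tested, 20.1% were higher and 17.9% lower with DHT under paxillin siRNA, and 21.6% and 18.9% under nonspecific siRNA. The ZNF genes below the limit have less power to be called. The other families were taken with no count limit. These counts are therefore not comparable with those of the members. In all, 91 of the 160 members (56.9%) were called in at least 1 comparison, beside 58.5% of all genes tested, and 69 in none.

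Several members share sequence with other genes, and their counts are uncertain. Of the 50-base words of ZNF320 and ZNF468 transcripts, 99.5% and 99.2% were also found in other genes, most often in each other. For ZNF280D the share was 44.2%, for ZNF395 41.7% (with FBXO16), for ZNF446 35.4% and for ZNF511 23.5%. The sources used here give no rule for strand or for reads with several alignments.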

How the data were processed

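RNA was sequenced from 12 C4-2 libraries prepared with a stranded mRNA kit, per the labels' protocols. The authors deposited 1 table of whole-number counts per gene symbol, taken as raw because the library totals differ. Trimmomatic 0.36, STAR 2.5.2b, Subread 1.5.0p3 and featureCounts, with the build GRCh38, are named in the submitters' processing notes. No annotation release or strand setting is given in the sources used here.

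Counts were fitted in R 4.3.3 with edgeR 4.0.16 (TMM scaling, filterByExpr with a minimum count of 10 and total of 15, quasi-likelihood test, 4 group means) on 16115 genes, all 160 members among them. P-values were adjusted by Benjamini-Hochberg over all genes tested, with calls at an adjusted p under 0.05. A standard error is the log2 fold change divided by the square root of its F statistic. CPM use TMM-scaled totals. Genes were named by rule: the 5 largest called rises and falls of each comparison, the 3 largest differences of DHT responses in each direction, the role lists, the partner list, the 3 genes on each side of the count limit and ZNF737. ZNF189, ZNF426, ZNF827 and ZNF445 were listed to a greater depth than that rule, after their values were seen, as were the genes near ZNF737. The members and lists were chosen with earlier results of these data known.

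Lengths and GC content came from the longest coding transcript in GENCODE 29, or from the longest transcript of a gene with no coding one. Fingers and KRAB-A matches (at least 9 of 16 letters of a consensus) came from the longest coding sequence of the gene. This annotation matched 86.5% of genes tested by name. GC content and length were fitted as splines with 4 degrees of freedom in each library. Same-numbered libraries deviated together: over 9283 genes, 18 same-number pairs correlated at 0.177 to 0.513 and 36 other pairs at -0.454 to 0.241. The numbers come from the titles. The main fit of 4 group means left this pairing out, so its calls and p-values ignore it. The replicate block, which uses the numbers, was run only as an alternative. Alternatives tried were upper-quartile and RLE scaling, fits with no filter on low counts, DESeq2 1.42.0, the replicate block, the GC and length fit, limits of 200 and 800 counts, and leaving out each library. The fits were tested on simulated counts. Replicates differed by more than counting noise (chi-square per degree of freedom 6.19 to 18.7), so none was merged.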

Additional observations from a re-analysis of the deposited data

Results flagged for a closer look

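The DHT response of ZNF737 is listed because it differed between the siRNAs. The log2 response was 1.01 with paxillin siRNA and 0.30 with nonspecific siRNA, a difference of 0.71, and all 3 paxillin siRNA DHT libraries lay above the 9 others. The gene was singled out with this pattern known, so its test only restates the choice and is not used as support. With GC content and length fitted the difference was 0.66, and the call over all genes was lost, while it was kept when the replicate block was added to that fit. Leaving out 1 library at a time, it was also lost in 10 of 12 cases. Over all genes, 0 were called in either direction without library 2 or 3 of any of the 4 groups. The part of shared sequence in the difference was not tested.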

How the results depend on the processing

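Of 315 recomputed summary values, 266 stayed within the limits set for them and 49 moved. Medians close to 0 changed sign: with DHT and paxillin siRNA under upper-quartile scaling (-0.0288 against 0.0575), and with DHT and nonspecific siRNA under no filter (0.0137), at 800 counts (0.0196) and without some single libraries. For named members, 2657 recomputed values kept their side of the threshold, 90 lost and 46 gained it, and no called value changed sign. The cause of a move was not tested except where it follows from fewer libraries or members.

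For DHT with nonspecific siRNA, upper-quartile scaling gave 11.2% of members higher and a median of -0.0753, and a limit of 200 counts a median of -0.0335. With paxillin siRNA, upper quartiles gave 15.6% higher and a median of -0.0288, the GC and length fit a median of 0.0309, and 0.0314 with the replicate block added.

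For paxillin siRNA in vehicle, the median was -0.0296 without a filter and -0.0637 at 800 counts. Higher calls were 9.38% with the replicate block and 11.2% with block and GC fit, where lower calls were 18.1%. In DHT, higher calls were 11.2% with the block and also with block and GC fit. Lower calls in DHT were 5.62% with the block, 5.62% with the GC fit, 8.75% with both and 6.76% at 800 counts. Calls over all genes also rose with the block, to 2384 higher and 2173 lower in vehicle and to 1681 and 1805 in DHT.

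For the difference of DHT responses, members called higher were 1.25% with no filter, 1.88% with the block, 0.357% at 200 counts, and 0 with the GC and length fit or at 800 counts, where ZNF737 is no longer a member.

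Leaving out 1 library, the median of DHT with nonspecific siRNA ran from -0.0312 to 0.0172. For paxillin siRNA in vehicle, higher calls ran from 1.25 to 6.25%, lower calls from 6.88 to 13.1% and the median from -0.058 to -0.0283. In DHT, higher calls ran from 2.5 to 8.12% and lower calls from 1.25 to 4.38%. Calls over all genes moved as well, with 987 to 1902 higher and 861 to 1622 lower in vehicle. In DHT they ran from 484 to 1152 higher and from 694 to 1319 lower. Members called for the difference ran from 0 to 0.625%. The replicate block kept every call of a member made without it. In the shallowest library 1 count was worth 0.0837 CPM.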
